A study of Mus musculus with 27 samples.

Results

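Collagen chains are the polypeptides that wind around each other in the triple helices of collagen, and 44 genes for them were found among the 54532 genes of the table (22046 of them protein-coding). A gene was taken when its biotype was protein-coding and its name had the form Col, a number, the letter a, and a number. The chains were measured by RNA-seq in mouse embryonic fibroblasts (MEFs) that were being turned into induced neurons (iN) with a set of neuronal transcription factors, called the reprogramming factors here. The 27 libraries form 9 groups of 3 replicates: WT MEFs, *Per1*-/- MEFs (allele B6.129-Per1tm1Drw/J), and MEFs labelled *Per2*-/- (allele B6.129-Per2tm1Drw/J), each on days 0, 2, and 4. All groups received the doxycycline-inducible lentiviruses on day -3, and doxycycline and neuronal N3 medium were started on day 0, so a day 0 library holds transduced MEFs before the reprogramming factors were switched on. A change from day 0 therefore contains the reprogramming factors, the new medium, and the time in culture, which cannot be told apart, since no group was kept without the reprogramming factors. MEFs came from mid-gestation embryos with the head and heart removed, cells of 4 embryos were pooled in a dish, and the sex of the embryos was not determined, so a culture is a mixture of mesenchymal cells and not a clone. The study asked what the loss of *Per1* or *Per2*, which encode repressors of the circadian clock, does to this conversion.

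Collagens are the main proteins of the extracellular matrix, and fibroblasts are the cells best known for making them. Every chain carries stretches in which glycine recurs at a fixed step, opening each triplet of residues. It has the only side chain small enough for the centre of the triple helix. Fibrillar collagens (types I, II, III, V, XI, XXIV, and XXVII) have 1 long helix and pack into fibrils, fibril-associated collagens sit on the fibril surface, collagen IV forms the sheet of basement membranes, collagen VIII and X form hexagonal networks, collagen VI forms beaded microfibrils, and others span the cell membrane or carry anti-angiogenic end domains.

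The repeat is visible in the genes of the 2 fibrillar chains that rose most over the 4 days, *Col3a1* and *Col5a3*, and of the most abundant one, *Col1a1*. Each exon below is 54 bases long and encodes 6 triplets (GENCODE mouse release M21 annotation, build GRCm38, coding exons, written 5′ to 3′ on the coding strand). Glycine codons are in capitals.
Col1a1, chr11:94939904-94939957, plus strand: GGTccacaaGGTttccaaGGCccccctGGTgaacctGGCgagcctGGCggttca
Col3a1, chr1:45325360-45325413, plus strand: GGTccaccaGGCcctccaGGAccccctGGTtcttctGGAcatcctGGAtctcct
Col5a3, chr9:20801068-20801121, minus strand: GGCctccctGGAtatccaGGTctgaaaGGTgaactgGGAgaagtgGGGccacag

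Each exon shown is the first of that length in its gene in which a glycine codon opens every triplet. The exons were picked for this pattern and only illustrate it. Of 1917 internal coding exons of the 44 members, 63.8% had a length that is a multiple of 9 bases, the size of 1 triplet, against 14.3% of 159213 internal coding exons of all protein-coding genes. The longest unbroken run of triplets was 337 to 344 in 9 of the 11 fibrillar chains, 216 in *Col24a1*, and 217 in *Col27a1*. In the 6 collagen IV chains, whose helix is known to be interrupted, it was 39 to 66 triplets. *Col26a1*, an outlying member of the family, had the shortest run, 23 triplets.

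Upstream windows are shown for the same 2 rising fibrillar chains, *Col3a1* and *Col5a3*, and for *Col7a1*, the chain with the largest fall that was called in every genotype. Each window is the 250 bases before the gene's RefSeq start (build GRCm38.p6, 5′ to 3′ on the gene's strand) and holds no annotated exon base. Matches on either strand to 6 motifs are in capitals. The motifs were TATAAA (known as the TATA box), CCAAT (the motif that factor NF-Y binds), GGGCGG (the GC box), CACGTG (the form of the E-box that clock factors bind), CAGCTG (another form of it), and TGANTCA (the site of AP-1 factors).
Col3a1, chr1:45311288-45311537, plus strand: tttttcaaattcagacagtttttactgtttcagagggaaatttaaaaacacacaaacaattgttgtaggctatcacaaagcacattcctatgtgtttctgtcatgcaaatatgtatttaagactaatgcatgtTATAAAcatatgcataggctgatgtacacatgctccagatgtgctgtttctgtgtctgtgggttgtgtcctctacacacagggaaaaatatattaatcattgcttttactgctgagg
Col5a3, chr9:20815068-20815317, minus strand: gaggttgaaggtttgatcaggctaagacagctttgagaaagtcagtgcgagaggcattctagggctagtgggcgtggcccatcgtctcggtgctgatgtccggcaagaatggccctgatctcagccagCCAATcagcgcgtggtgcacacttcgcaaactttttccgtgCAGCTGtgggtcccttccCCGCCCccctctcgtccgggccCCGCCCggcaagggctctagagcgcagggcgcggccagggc
Col7a1, chr9:108953336-108953585, plus strand: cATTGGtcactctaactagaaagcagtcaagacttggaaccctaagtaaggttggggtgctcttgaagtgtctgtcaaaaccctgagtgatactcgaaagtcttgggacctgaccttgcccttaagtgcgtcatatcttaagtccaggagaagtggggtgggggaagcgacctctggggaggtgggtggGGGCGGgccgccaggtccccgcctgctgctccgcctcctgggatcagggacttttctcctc

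The *Col3a1* window held 1 TATAAA and no other motif searched. The *Col5a3* window held 1 CCAAT, 2 GGGCGG, and 1 CAGCTG, and the *Col7a1* window 1 CCAAT and 1 GGGCGG. Over the 35 members with a window in the RefSeq table, TATAAA was found in 5 (14.3%, against 12.4% of all 32851 windows), CCAAT in 12 (34.3% against 33.8%), GGGCGG in 21 (60% against 32.7%), CAGCTG in 6 (17.1% against 13.0%), TGANTCA in 1 (2.86% against 6.75%), and CACGTG in 0 (against 6.02%). For each member only the window nearest its annotated gene start was counted, while the background holds every window, so the 2 shares are not fully alike. Windows of *Col4a1*, *Col4a2*, *Col6a4*, and *Col20a1* lay wholly in annotated exons. The start site used for *Col25a1* was 49344 bases from its annotated gene start. In the 3 windows shown, no match overlapped another. These are matches of letters, and no binding was measured here.

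Libraries held 15815013 to 24264097 gene fragments. Levels are given in FPKM, fragments scaled to gene length and library size by the authors, which allows chains of different length to be compared. In the 27 pairs of replicates, chi-square per degree of freedom was 9.01 to 67.4, where counting error alone gives 1, so none was a copy of another. The labels call the replicates biological without saying how their cultures were separated, so p-values measure only the spread between these libraries. *Per1* was 4.11 ± 0.866 FPKM (mean ± SD, n = 3) in *Per1*-/- cells against 5.78 ± 0.479 in WT cells on day 0. *Per2* was 1.93 ± 0.068 FPKM in the libraries labelled *Per2*-/- against 0.894 ± 0.0709 in WT libraries. At the RNA level *Per2* goes against its label, although values over the whole gene cannot show the deleted part of either gene. The study reported from western blots that PER1 and PER2 protein were lost in the respective MEFs. The RNA values leave the *Per2* label unchecked, so these are called the libraries labelled *Per2*-/-. All samples are labelled induced neurons, but the 8 fibroblast markers were present on every day: their summed level in WT libraries was 347 to 529.8 FPKM on day 0 and 243 to 276 on day 4. The summed level of 8 neuron markers in the same libraries was 34.5 to 46.8 and 134 to 189 FPKM, with *Rbfox3*, which encodes the mature neuron protein NeuN, at 0 on day 0. Macrophage markers (10 genes) summed to 82.8 to 154 and 333 to 433 FPKM. On day 4 they summed to 612 to 930.4 FPKM in *Per1*-/- libraries and 239.7 to 314 in those labelled *Per2*-/-. None of the 10 was at 0 throughout a group. Endothelial markers (6 genes) summed to 2.48 to 3.27 and 4.96 to 7.16 FPKM in WT libraries, with *Tie1* at 0 in every WT library. In bulk RNA, more or fewer cells of a type and more or less RNA per cell cannot be told apart, and the part of these cell types in the collagen results was not tested.

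Most of the tested collagen chains changed between day 0 and the later days, and most of those that changed rose. Collagen transcripts took 1.88 to 2.88% (median 2.13%) of the fragments in the 9 day 0 libraries, 3.38 to 4.97% (median 3.97%) on day 2, and 4.45 to 5.62% (median 4.61%) on day 4. The day 0 libraries did not overlap with those of the later days. The 35 chains whose mean level over all libraries reached 0.5 FPKM entered a limma fit of the 14932 genes that did so. A chain was called when its adjusted p (Benjamini-Hochberg over all genes tested) did not pass 0.05 and its level moved by 0.58 or more on the log2 scale, that is 1.5-fold. A chain that passed the filter only through its high group had to differ, so the counts describe the 35 tested chains and not the family. From day 0 to day 2, 18 of 35 chains rose and 4 fell in WT cells, against backgrounds of 20.8% of all genes tested rising and 19.7% falling. Among *Per1*-/- cells 15 rose and 5 fell (backgrounds 20.8% and 18.8%), and in the libraries labelled *Per2*-/- 14 rose and 4 fell (backgrounds 18.7% and 16.8%). These counts leave out replicate numbers, which paired the *Per1*-/- libraries of days 0 and 2. From day 0 to day 4, 20 rose and 5 fell in WT cells, where 22.9% and 20.9% of all genes did. In *Per1*-/- cells 19 rose and 6 fell (22.6% and 20.4%), and in the libraries labelled *Per2*-/- 19 rose and 4 fell (21.6% and 18.8%). The median log2 fold change from day 0 to day 4 was 1.25, 0.93, and 0.97 over the 35 chains in WT, *Per1*-/-, and labelled *Per2*-/- libraries, and -0.02, -0.00088, and 0.0045 over all genes. Across the 3 genotypes, 18 chains rose in every genotype and 4 (*Col4a1*, *Col4a2*, *Col4a6*, and *Col7a1*) fell in every genotype by day 4. Chains not called in any genotype numbered 8: *Col5a2*, *Col24a1*, *Col11a2*, *Col12a1*, *Col9a1*, *Col9a3*, *Col4a5*, and *Col10a1*. The split depends on the scaling. When FPKM were rescaled to a common sum, the median change of all genes from day 0 moved up by 0.24 to 0.42 on the log2 scale. From day 0 to day 2 this shift was 0.42 in WT and 0.38 in *Per1*-/- cells. The calls became 24 up and 2 down in WT cells and 19 up and 3 down in *Per1*-/- cells. The backgrounds above do not apply to these counts, and the share of all genes called under this scaling is not given. The counts therefore show only that the split moves with the scaling.

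**Figure D1:**
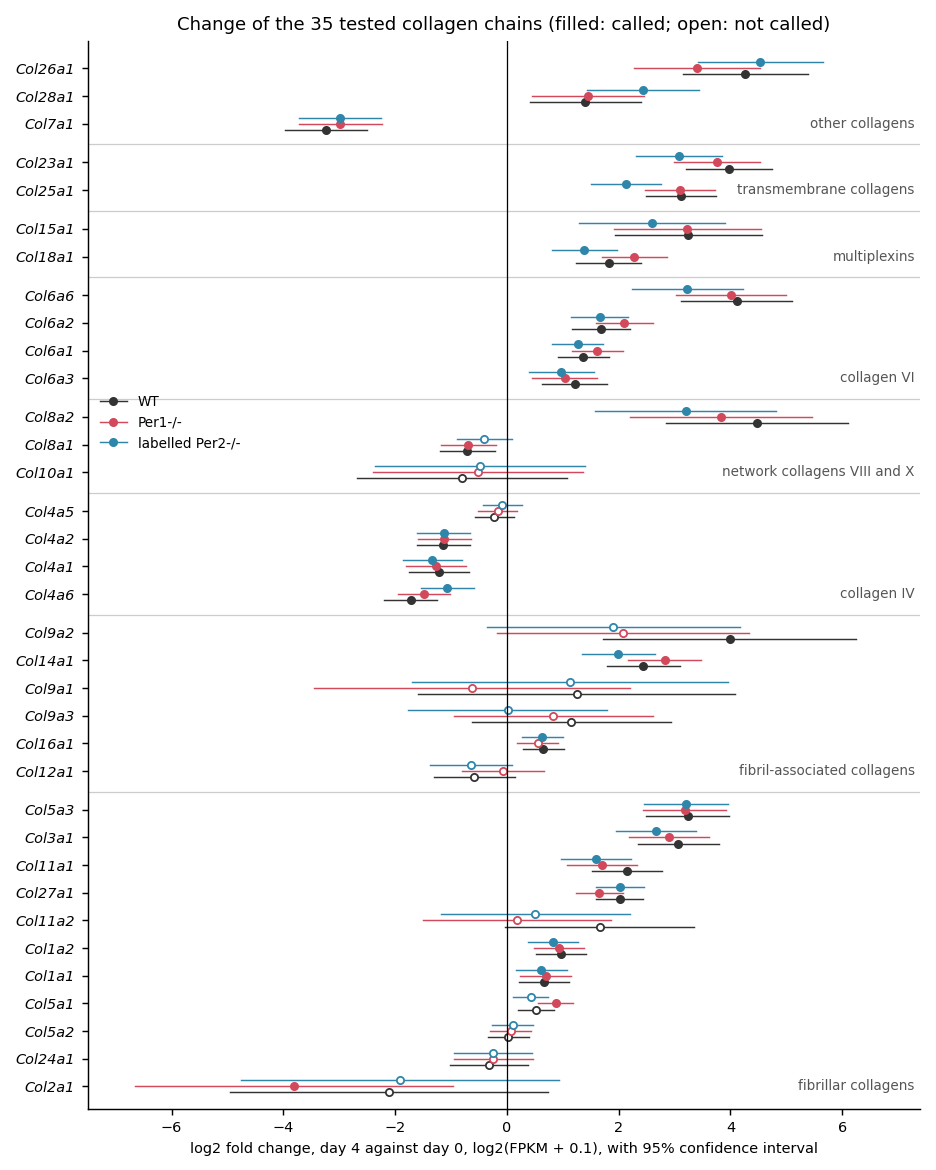
Log2 fold change from day 0 to day 4 (x axis, log2(FPKM + 0.1) scale) of the 35 tested collagen chains (y axis, grouped by class) in WT, *Per1*-/-, and labelled *Per2*-/- libraries, 3 against 3 each. Points are the estimates, lines their 95% confidence intervals, and filled points are called. Fibrillar chains except *Col2a1*, *Col24a1*, and *Col5a2*, collagen VI, the multiplexins, and the transmembrane chains lie to the right of 0, while *Col4a1*, *Col4a2*, *Col4a6*, and *Col7a1* lie to the left in each genotype.

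Of the 11 tested fibrillar collagens, 6 (*Col1a1*, *Col1a2*, *Col3a1*, *Col5a3*, *Col11a1*, and *Col27a1*) had risen in every genotype by day 4 and *Col5a1* in *Per1*-/- cells. *Col2a1* fell in *Per1*-/- cells. In WT libraries the class summed to 1977 to 2488 FPKM on day 0 and 3769 to 5179.7 on day 4. *Col3a1* encodes the only chain of type III collagen, the fibril former of soft and distensible tissue. It stood at 120.3, 139.9, and 127 FPKM in the 3 WT libraries of day 0, at 650.3, 893, and 602 on day 2, and at 997, 1156, and 1094 on day 4. Values in *Per1*-/- libraries were 295, 104, and 101, then 903, 609.9, and 629, then 1115, 1063, and 1091 FPKM. In the libraries labelled *Per2*-/- they were 78.1, 249, and 190.3, then 591, 817, and 677, then 1061, 1055, and 855 FPKM. All 18 later libraries lay above all 9 of day 0, and the spread on day 0 was wider in the *Per1*-/- and labelled *Per2*-/- groups than in WT. The log2 fold change from day 0 to day 4 was 3.07 (SE 0.35, adjusted p = 1.8e-07) in WT, 2.90 (SE 0.35, adjusted p = 4.19e-07) in *Per1*-/-, and 2.67 (SE 0.35, adjusted p = 1.37e-06) in labelled *Per2*-/- libraries, with 2.45, 2.27, and 2.15 already reached on day 2.

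*Col1a1* and *Col1a2* encode the α1 and α2 chains of type I collagen, the main fibril of bone, tendon, and skin, and *Col1a1* had the highest mean level of the 44 chains. *Col1a1* stood at 1083, 1422, and 1095 FPKM in WT libraries of day 0, then 1647, 2078, and 1208 on day 2 and later 1903, 2367, and 1484 on day 4. It was 1564, 901, and 982 on day 0 and 1491, 2107, and 1858 on day 4 in *Per1*-/- libraries, and in those labelled *Per2*-/- 982, 1339, and 1044 and 1871, 1501, and 1770.0. The days overlap: *Per1*-/- replicate 1 on day 0 was higher than some libraries of day 4. Its rise by day 4 was small, 0.66 (SE 0.22, adjusted p = 0.0113) in WT, 0.69 (SE 0.22, adjusted p = 0.00862) in *Per1*-/-, and 0.62 (SE 0.22, adjusted p = 0.0182) in labelled *Per2*-/- libraries, and by day 2 it was not called in any genotype. The call was lost in WT without day 4 replicate 2 (0.50, adjusted p = 0.0737), in *Per1*-/- without day 0 replicate 2 (0.54, adjusted p = 0.0569) or day 4 replicate 2 (a change of 0.579, just under the minimum, with adjusted p = 0.0451), and in labelled *Per2*-/- libraries without day 0 replicate 1 (0.53, adjusted p = 0.0715), day 0 replicate 3 (0.57, adjusted p = 0.0556), or day 4 replicate 1 (0.55, adjusted p = 0.0622). *Col1a2* ranged from 292 to 527 (median 367) FPKM over the 9 libraries of day 0 and from 588 to 921 (median 695) over the 9 of day 4, without overlap. It rose by 0.96, 0.93, and 0.83 on the log2 scale in the 3 genotypes by day 4, so both chains of type I collagen rose, each less than *Col3a1*.

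Type V collagen is built into type I fibrils and limits their width, and its 3 chains went different ways. *Col5a3* stood at 6.67, 7.48, and 4.09 FPKM in WT libraries of day 0, then 24.3, 30.1, and 16.5 on day 2 and later 58.4, 58.2, and 52.5 on day 4. It went from 7.35, 8.9, and 3.01 on day 0 to 65.8, 51.9, and 45.4 on day 4 in *Per1*-/- libraries, and in those labelled *Per2*-/- from 3.39, 6.59, and 5.18 to 33.3, 64.2, and 45. The lowest library of day 4 was 33.3 FPKM and the highest of day 0 8.9. The log2 fold change by day 4 was 3.23 (SE 0.36, adjusted p = 1.31e-07) in WT, 3.18 in *Per1*-/-, and 3.21 in labelled *Per2*-/- libraries. *Col5a1* was 215 ± 52.3 FPKM on day 0 and 305 ± 31.5 on day 4 in WT cells, a difference of 0.52 (SE 0.15, adjusted p = 0.00487) that is below the minimum fold, and it was called in *Per1*-/- cells (0.87, SE 0.15, adjusted p = 4.03e-05). *Col5a2* was 204 ± 11.4 and 209 ± 31.4 FPKM in WT cells (log2 fold change 0.02, 95% confidence interval -0.34 to 0.39), so a 1.5-fold change in either direction lies outside its interval. Of the 3 chains, *Col5a3* alone was called in every genotype. *Col5a1* overlaps *2810430I11Rik* and *Gm13372*, and since the library kit does not mark the strand, reads in shared bases cannot be assigned.

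*Col11a1*, a chain of the type XI fibrils of cartilage that is also made by other mesenchymal cells, reached its level by day 2. It ranged from 12.7 to 43.2 (median 17.1) FPKM over the 9 libraries of day 0, 61 to 91.2 (median 67.5) on day 2, and 58.2 to 87.3 (median 66.6) on day 4, and it rose by 2.16 (day 2) and 2.14 (day 4) on the log2 scale in WT cells. The highest library of day 0 was *Per1*-/- replicate 1. *Col27a1*, a chain with a shorter helix, ranged from 0.88 to 1.72 (median 1.1) FPKM on day 0 and 3.65 to 6.36 (median 4.49) on day 4, also without overlap, with log2 fold changes of 2.02, 1.66, and 2.02 in the 3 genotypes. *Col24a1*, its closest relative by helix length, was not called in any comparison between days (0.343 to 1.14 (median 0.715) FPKM on day 0 and 0.413 to 0.937 (median 0.583) on day 4). *Col2a1* and *Col11a2*, chains of cartilage fibrils, are described with collagen IX.

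**Figure D2:**
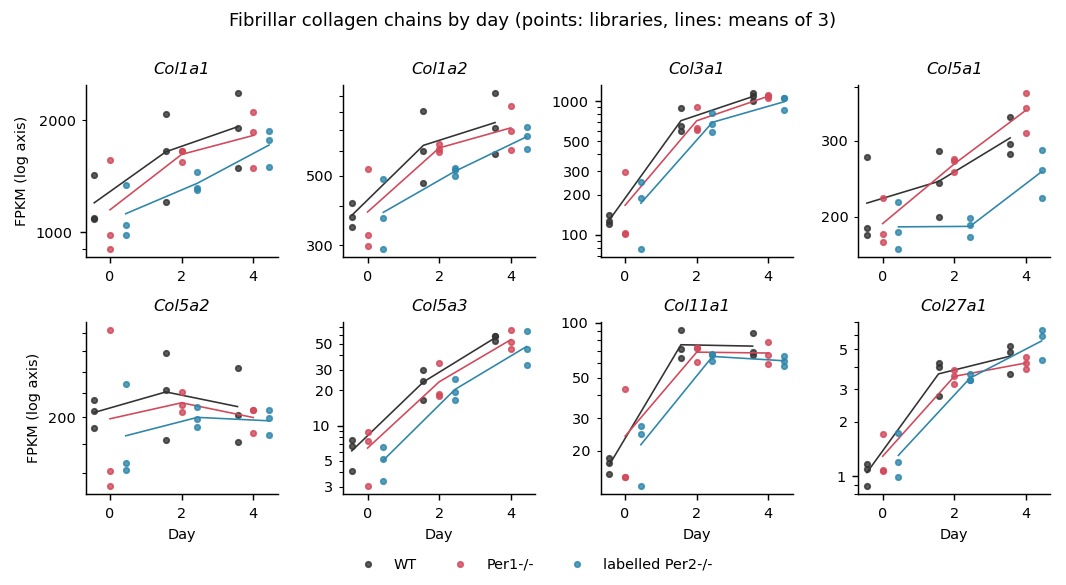
Level in FPKM (y axis, logarithmic) of 8 fibrillar collagen chains on days 0, 2, and 4 (x axis), with 1 point for each of the 27 libraries and lines through the means of 3 replicates for each genotype. *Col3a1*, *Col5a3*, *Col11a1*, and *Col27a1* on days 2 and 4 lie above every library of day 0, while *Col5a2* stays between 152 and 283 FPKM throughout.

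Ratios between chains were computed in each library from FPKM, that is per length, over the 9 libraries of each day (mean ± SD). Some pairs are partners in the same collagen, while *Col3a1* and *Col1a1* belong to different collagens, so their ratio compares 2 collagen types. *Col1a1* to *Col1a2*, which stand 2 to 1 in the main form of type I collagen, was 3.06 ± 0.234 on day 0, 2.63 ± 0.138 on day 2, and 2.57 ± 0.0828 on day 4. The day 0 ratios (2.74 to 3.47) did not overlap with those of day 4 (2.46 to 2.68). *Col3a1* to *Col1a1* went from 0.131 ± 0.0423 on day 0 to 0.466 ± 0.0845 on day 2 and 0.593 ± 0.108 on day 4, and the highest ratio of day 0 was 0.188 against a lowest of 0.381 on day 2. *Col5a1* to *Col5a2* was 1.04 ± 0.171, then 1.1 ± 0.134, then 1.51 ± 0.237, with overlap between days 0 and 4, and *Col5a3* to *Col5a2* went from 0.0303 ± 0.0121 to 0.263 ± 0.0543, without overlap. The mix of fibril-forming transcripts thus moved toward *Col3a1* and *Col5a3*. These ratios are a description of transcripts, with no test.

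**Figure D3:**
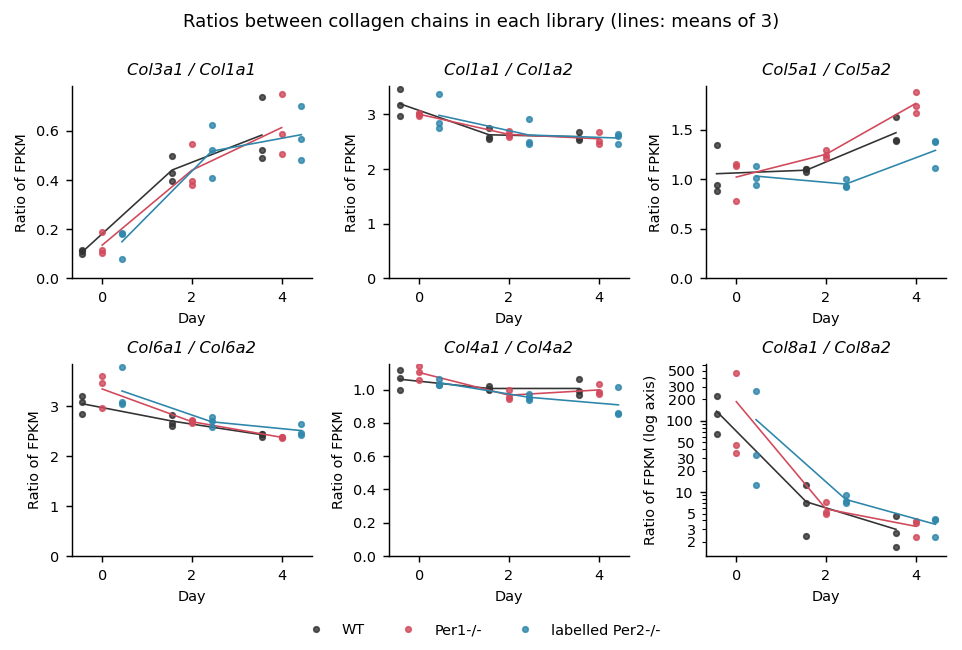
Ratio of the FPKM of 2 collagen chains (y axis, logarithmic only for *Col8a1* to *Col8a2*) in each of the 27 libraries by day (x axis), with lines through the means of 3 replicates for each genotype. *Col3a1* to *Col1a1* climbs from at most 0.188 in every library of day 0 to at least 0.381 on days 2 and 4, while *Col4a1* to *Col4a2* stays between 0.851 and 1.14.

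The basement membrane chains went the other way. Of 4 tested collagen IV chains, *Col4a1*, *Col4a2*, and *Col4a6* fell in every genotype on both days and *Col4a5* was not called in any. *Col4a1* and *Col4a2* form the ubiquitous α1α1α2 network of basement membranes, and their genes lie head to head. *Col4a1* stood at 305, 213, and 231 FPKM in WT libraries of day 0, at 156, 127, and 138 on day 2, and at 97.6, 113, and 108 on day 4. Libraries of *Per1*-/- cells held 179, 267, and 316 on day 0 and 75.9, 132, and 109 on day 4, and in those labelled *Per2*-/- 209.8, 199, and 197 and 75.8, 109, and 62.5. The lowest library of day 0, *Per1*-/- replicate 1, was still above all 18 later libraries. The log2 fold change by day 4 was -1.21 (SE 0.26, adjusted p = 0.000324) in WT, -1.26 in *Per1*-/-, and -1.33 in labelled *Per2*-/- libraries. For *Col4a2* it was -1.14 (SE 0.23, adjusted p = 0.00021), -1.12, and -1.13, with levels of 169 to 285 (median 213) FPKM on day 0 and 72.6 to 128 (median 102) on day 4. The 2 fell together: their ratio was 1.07 ± 0.0464 on day 0 and 0.971 ± 0.0719 on day 4. Their RefSeq start sites lie 21 bases apart on opposite strands, and reads in the bases they share cannot be assigned to either gene. On day 2 the falls of both were lost under the common-sum scaling in WT cells (*Col4a1* -0.38, adjusted p = 0.145; *Col4a2* -0.31, adjusted p = 0.186) and in *Per1*-/- cells, while those on day 4 were called under it.

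*Col4a5* and *Col4a6* encode the α5 and α6 chains of other collagen IV networks. *Col4a6* was 3.06 ± 1.05 FPKM on day 0 and 0.821 ± 0.0376 on day 4 in WT cells, a log2 fold change of -1.72 (SE 0.23, adjusted p = 1.33e-06), and its change was -1.48 and -1.07 in *Per1*-/- and labelled *Per2*-/- libraries. *Col4a5* was 27.6 ± 1.12 and 23.7 ± 1.85 FPKM in WT cells (-0.22, SE 0.17, adjusted p = 0.261, not called), so the ratio of *Col4a5* to *Col4a6* went from 9.27 ± 2.08 on day 0 to 23.8 ± 5.49 on day 4. *Col4a3* and *Col4a4*, the chains of kidney and lung basement membranes, reached at most 0.228 FPKM and were not tested. *Col7a1* encodes the chain of anchoring fibrils, which tie the basement membrane of skin to the dermis, and it had the largest fall of the family that was called in every genotype. It stood at 20.1, 14.6, and 18.3 FPKM in WT libraries of day 0, then 6.31, 4.62, and 5.26 on day 2 and later 1.74, 1.43, and 2.19 on day 4. In *Per1*-/- libraries it was 8.61, 20, and 21.4 on day 0 and 1.1, 2.16, and 2.73 on day 4, and in those labelled *Per2*-/- 17.4, 13, and 14.3 and 1.71, 1.81, and 1.8. Each day 4 library was under each day 0 library, and the log2 fold changes were -3.24 (SE 0.35, adjusted p = 1.07e-07), -2.98 (SE 0.35, adjusted p = 3.73e-07), and -2.99 (SE 0.35, adjusted p = 3.83e-07).

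The 2 chains of collagen VIII, a network collagen of vessel walls and of the cornea's Descemet membrane, moved in opposite directions. *Col8a2* stood at 0.937, 0.345, and 0.40 FPKM in WT libraries of day 0, then 5.99, 18, and 3.9 on day 2 and later 10.5, 30.6, and 7.68 on day 4. Among *Per1*-/- libraries it went from 1.82, 0.997, and 0.151 to 7.19, 23.7, and 8.68 by day 4, and in those labelled *Per2*-/- from 0.228, 1.62, and 3.66 to 9.5, 11.7, and 14.5. All later libraries lay above all of day 0, with WT replicate 2 the highest of its group on days 2 and 4. Without WT day 4 replicate 2 the day 4 change in WT cells was 3.89, adjusted p = 0.000559. Its log2 fold change by day 4 was 4.48 (SE 0.78, adjusted p = 4.26e-05) in WT, 3.83 in *Per1*-/-, and 3.2 in labelled *Per2*-/- libraries, and leaving out single libraries moved the last 2 to between 2.99 (without day 0 replicate 3) and 4.46 (without day 0 replicate 1), and between 2.22 (without day 0 replicate 1) and 3.98 (without day 0 replicate 3), all called. *Col8a1* was 62 ± 13.6 FPKM on day 0 and 38.5 ± 11.9 on day 4 in WT cells. It fell by day 4 in WT (-0.71, SE 0.24, adjusted p = 0.0133) and *Per1*-/- cells (-0.69, SE 0.24, adjusted p = 0.0152) and was not called in the libraries labelled *Per2*-/- (-0.41, SE 0.24, adjusted p = 0.144), where the difference from WT was itself not called. Both calls were lost under the common-sum scaling (-0.31, adjusted p = 0.218, and -0.42, adjusted p = 0.0927). They were also lost in WT without day 0 replicate 2 (-0.55, adjusted p = 0.0751) or day 4 replicate 1 (-0.51, adjusted p = 0.0908), and in *Per1*-/- without day 0 replicate 3 (-0.56, adjusted p = 0.0742), day 4 replicate 1 (-0.46, adjusted p = 0.114), or day 4 replicate 3 (-0.63, adjusted p = 0.0507). The ratio of *Col8a1* to *Col8a2* went from 12.7 to 475 over the libraries of day 0 to 1.68 to 4.64 on day 4.

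**Figure D4:**
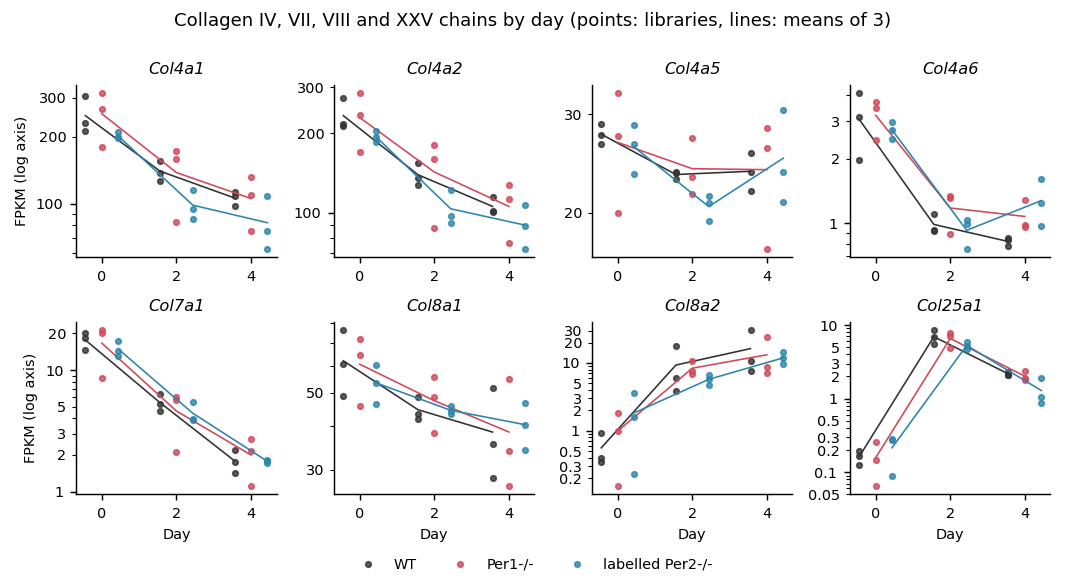
Level in FPKM (y axis, logarithmic) of 4 collagen IV chains, *Col7a1*, both collagen VIII chains, and *Col25a1* on days 0, 2, and 4 (x axis), with 1 point for each of the 27 libraries and lines through the means of 3 replicates for each genotype. *Col4a1*, *Col4a2*, *Col4a6*, and *Col7a1* are lower on day 4 than in every library of day 0, *Col8a2* is higher, and *Col25a1* peaks on day 2.

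All 4 tested chains of collagen VI, the beaded microfibril that links cells to the surrounding matrix, rose by day 4 in every genotype. Among them, *Col6a6* passed the filter only through its level on day 4. *Col6a1* was 87.6, 137, and 113 FPKM in WT libraries of day 0, then 204, 226, and 169.8 on day 2 and later 285, 291, and 279 on day 4, and over all genotypes the 9 libraries of day 0 lay below those of day 2 and these below those of day 4. The same held for *Col6a2*, with 20.8 to 51.1 (median 35.2) FPKM on day 0, 59.1 to 93.6 (median 72.2) on day 2, and 105 to 158 (median 119) on day 4. The log2 fold changes by day 4 were 1.36 (SE 0.22, adjusted p = 1.64e-05) for *Col6a1*, 1.69 (SE 0.25, adjusted p = 5.35e-06) for *Col6a2*, and 1.21 (SE 0.28, adjusted p = 0.000759) for *Col6a3* in WT cells, 1.62, 2.1, and 1.03 in *Per1*-/- cells, and 1.27, 1.66, and 0.97 in the libraries labelled *Per2*-/-. These 3 chains make up the classical microfibril in equal parts. *Col6a1* to *Col6a2* was 3.23 ± 0.314 on day 0 and 2.44 ± 0.0853 on day 4, and *Col6a3* to *Col6a2* 1.68 ± 0.503 and 0.974 ± 0.0969. *Col6a6*, an alternative to the α3 chain, was 0.00573, 0, and 0.0272 FPKM in WT libraries of day 0. It reached 0.152, 0.133, and 0.314 on day 2 and 1.54, 1.76, and 2.17 on day 4. It was near 0 at the start and rose again between days 2 and 4, with a log2 fold change of 4.11 (SE 0.47, adjusted p = 2.39e-07) on the log2(FPKM + 0.1) scale, which understates the change of so low a gene. Since day 4 alone carried *Col6a6* past the filter, its rise by day 4 was fixed in advance. Its p-values are therefore no support for that rise. Its relatives *Col6a4* and *Col6a5* were too low to be tested. They were at most 0.0606 and 0.0902 FPKM on day 0 and 0.10 to 0.314 and 0.143 to 0.614 on day 4, without overlap.

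Among the 6 tested fibril-associated chains, *Col14a1* rose in every genotype, *Col16a1* in WT and labelled *Per2*-/- libraries, *Col9a2* in WT cells, and none fell by day 4. *Col14a1*, whose product binds the surface of type I fibrils, was 3.54, 2.99, and 1.78 FPKM in WT libraries of day 0 and 14.2, 19.7, and 12 on day 4, with 1.78 to 4.51 (median 2.99) over all libraries of day 0 and 11.2 to 26.9 (median 15) over those of day 4. Its log2 fold change was 2.44 (SE 0.31, adjusted p = 1.04e-06) in WT, 2.82 in *Per1*-/-, and 1.99 in labelled *Per2*-/- libraries. *Col12a1*, a close relative of *Col14a1*, was much more abundant and was not called in any comparison (125 ± 16.6 FPKM on day 0 and 82.9 ± 7.97 on day 4 in WT cells). *Col16a1* was 27.8 ± 1.8 and 44.7 ± 10.2 FPKM in WT cells, a rise of 0.66 (SE 0.17, adjusted p = 0.00266) that was also called in the libraries labelled *Per2*-/- (0.64), while the change in *Per1*-/- cells was 0.55 (SE 0.17, adjusted p = 0.00927), under the minimum fold. The call was lost without WT day 4 replicate 2 (0.50, adjusted p = 0.0246), and without day 0 replicate 1 (0.48, adjusted p = 0.0319) or day 4 replicate 3 (0.53, adjusted p = 0.0248) labelled *Per2*-/-, each time because the change fell under the minimum fold.

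The collagen IX chains, which coat the type II fibrils of cartilage, and the cartilage fibril chains *Col2a1* and *Col11a2* were set apart by 2 of the 9 libraries of day 0. *Col2a1* was 33.5 FPKM in *Per1*-/- replicate 2 and 116 in replicate 3 labelled *Per2*-/-, against 2.24 to 7.13 in the other 7. *Col9a1* was 3.73 and 5.8 FPKM in the same libraries, against at most 0.0672. *Col9a2* was 5.47 and 6.89 against at most 0.317, *Col9a3* 3.81 and 5.12 against at most 0.668, and *Col11a2* 3.56 and 5.25 against at most 0.378. These 5 chains were high together in both libraries. Of the 8 cartilage markers, *Acan*, *Cnmd*, *Hapln1*, and *Matn1* were also above the range of the other 7 libraries in both. *Matn1* was so only by a value near 0 in *Per1*-/- replicate 2 (0.162 FPKM, against at most 0.0747). In replicate 3 labelled *Per2*-/- it was 8.42 FPKM. *Cnmd*, which encodes chondromodulin, was 3.34 and 5.61 FPKM, against at most 0.0262 and 0 in 6 of 7. *Acan*, which encodes the cartilage proteoglycan aggrecan, was 4.07 and 2.66 FPKM against at most 0.602. *Matn3* was above it only in *Per1*-/- replicate 2, *Comp* and *Snorc* only in replicate 3 labelled *Per2*-/-, and *Sox9* in neither, and the part of cartilage cells in these values was not tested. *Col10a1*, the marker chain of hypertrophic cartilage, was not high in these libraries but in WT replicate 2 (25 FPKM) and replicate 1 labelled *Per2*-/- (12) of day 0. It was not called in any comparison, and it overlaps *Nt5dc1*.

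Changes of these chains in *Per1*-/- and labelled *Per2*-/- libraries depended on those 2 libraries, and are given with and without them, an alternative added after the values were seen. Leaving them out takes away the highest values of day 0 of these same chains, which by itself moves each change upwards, so the changes without them are a description and are given with no test. In WT cells, where no library stood apart on day 0, *Col9a2* rose from 0.136, 0.0468, and 0.0644 FPKM on day 0 to 3.32, 3.38, and 1.76 on day 2 and 3.34, 2.41, and 2.53 on day 4, with log2 fold changes of 3.98 (SE 1.09, adjusted p = 0.0035) and 3.99 (SE 1.09, adjusted p = 0.00314). In *Per1*-/- and labelled *Per2*-/- libraries the day 4 changes of *Col9a2* were 2.08 (SE 1.09, adjusted p = 0.102) and 1.91 (SE 1.09, adjusted p = 0.135) with all libraries, neither of them called, and 3.62 and 3.65 without the 2. A rise of *Col9a2* was thus called in WT cells and in no other genotype, and its change was not called against that in WT. *Col11a2* was 0.277, 0.198, and 0.27 FPKM in WT libraries of day 0 and 3.06, 2.39, and 0.663 on day 2. It rose by day 2 in WT cells (2.39, SE 0.81, adjusted p = 0.0149), a call lost without WT day 2 replicate 1 (1.99, adjusted p = 0.0677) or replicate 2 (2.16, adjusted p = 0.0529). Cartilage markers were uneven in the same WT libraries of day 2: *Acan* was 1.88, 1.05, and 0.0345 FPKM, *Cnmd* 1.36, 1.79, and 0.0279, *Hapln1* 3.86, 1.84, and 0.462, and *Matn1* 1.35, 0.578, and 0. The sum of all 8 markers was 30.5, 24.5, and 12.6 FPKM there, against 7.12, 9.24, and 6.85 in WT libraries of day 0, with *Sox9* at 9.54, 10.6, and 9.01. *Col9a1* (2.61, 1.3, and 0.112 FPKM) and *Col9a3* (1.91, 2.01, and 0.788) were also lowest in WT day 2 replicate 3, as were *Col9a2* and *Col11a2*, and the part of cartilage cells in these changes was not tested. *Col9a2* was still 1.76 FPKM in that replicate, above all 3 WT libraries of day 0. The day 4 change of *Col11a2* was 0.18 and 0.51 in the other genotypes, and 1.17 and 1.82 without the 2 libraries. *Col2a1* fell in *Per1*-/- cells by day 4 (-3.81, SE 1.37, adjusted p = 0.0199). The change was -2.75 without the 2 libraries, and since they were picked for their *Col2a1*, a smaller fall was built in. Leaving out 1 library ended the call in 2 of 6 fits, among them that without *Per1*-/- day 4 replicate 3 (-3.33, adjusted p = 0.0711). Later libraries also varied, from 0.163 to 18.8 FPKM on day 2, so no change of *Col2a1* shared by the 3 genotypes was found. *Col9a1* and *Col9a3* were not called in any genotype. *Col9a3* overlaps *Tcfl5*, from whose reads it cannot be told apart.

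**Figure D5:**
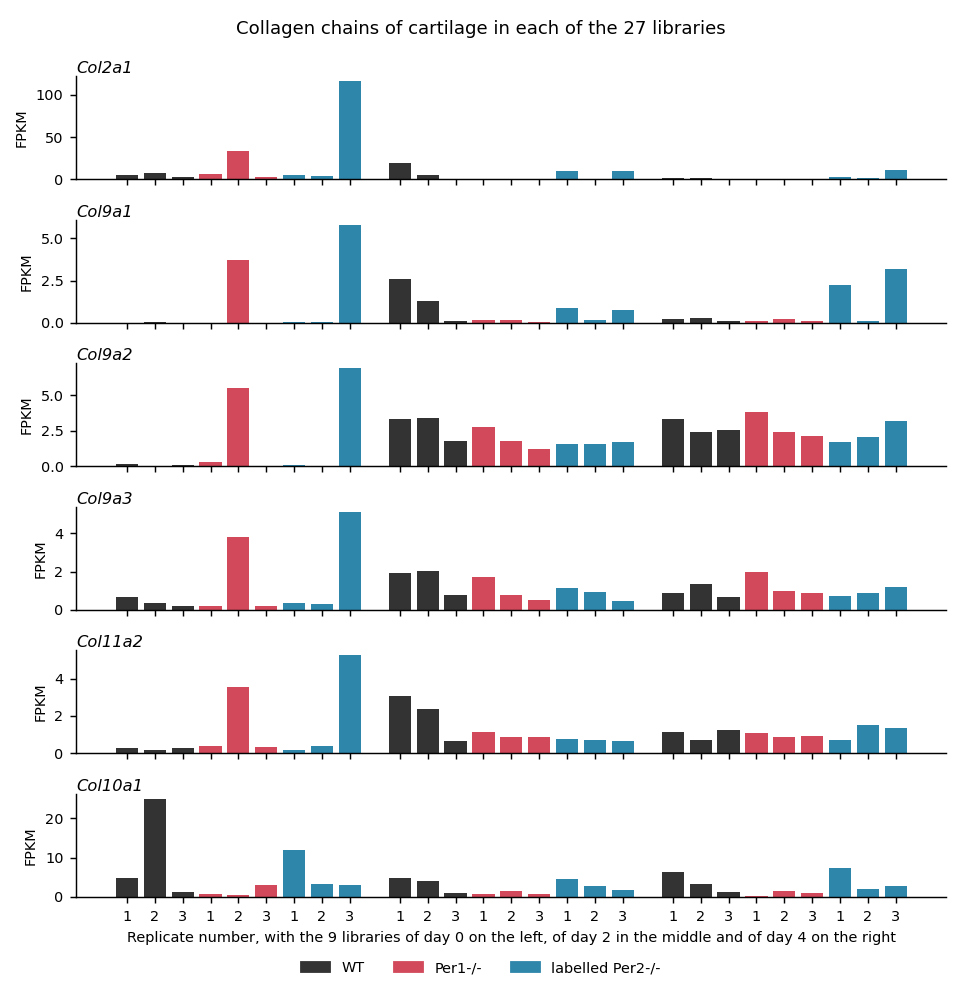
Level in FPKM (y axes, from 0) of *Col2a1*, the 3 collagen IX chains, *Col11a2*, and *Col10a1* in each of the 27 libraries (x axis, by day, genotype, and replicate). *Per1*-/- replicate 2 and replicate 3 labelled *Per2*-/- of day 0 have the highest bars of day 0 for the first 5 chains, with *Col2a1* at 33.5 and 116 FPKM, and *Col10a1* is highest in other libraries.

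Both multiplexins, collagens of basement membrane zones with many breaks in the helix, rose by day 4 in every genotype. *Col18a1*, which carries the endostatin domain, was 15.2, 20.2, and 9.73 FPKM in WT libraries of day 0 and 62.2, 50.5, and 58.2 on day 2, and 54.8, 39.9, and 60.9 on day 4. All libraries of days 2 and 4 lay above the 9.2 to 28.1 FPKM of day 0, with log2 fold changes by day 4 of 1.82 (SE 0.28, adjusted p = 1.01e-05), 2.28, and 1.39. *Col15a1* was 0.985, 1.42, and 0.557 FPKM on day 0 and 7.02, 7.51, and 17 on day 4 in WT cells, with log2 fold changes of 3.25 (SE 0.63, adjusted p = 0.000143), 3.23, and 2.6. In *Per1*-/- libraries of day 4 it was 31.5, 8.43, and 8.8 FPKM, and without the first of these the change was 2.61, adjusted p = 0.002. In those labelled *Per2*-/- it was 3.41, 16, and 9.3, and without the first the change was 3.2, adjusted p = 0.000365. *Col18a1* overlaps *Slc19a1*. So 2 chains of the basement membrane zone rose while the collagen IV chains *Col4a1* and *Col4a2* fell in the same libraries.

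The 2 tested transmembrane chains, which carry their helix on the cell surface, rose from very low levels and took different courses. *Col25a1*, a chain known from neurons as the precursor of a component of amyloid plaques, was 0.195, 0.127, and 0.166 FPKM in WT libraries of day 0, then 6.78, 5.49, and 8.59 on day 2 and later 2.07, 2.1, and 2.32 on day 4. For *Per1*-/- libraries it was 0.0639, 0.261, and 0.146, then 4.86, 7.05, and 7.8, then 1.79, 1.9, and 2.36, and in those labelled *Per2*-/- 0.0877, 0.283, and 0.274, then 4.78, 5.92, and 5.18, then 0.873, 1.92, and 1.07. Over the 27 libraries the 3 days did not overlap, with day 2 highest. The log2 fold change to day 2 was 4.73 (SE 0.30, adjusted p = 8.36e-11), 4.74 (SE 0.30, adjusted p = 1.19e-10), and 4.17 (SE 0.30, adjusted p = 6.52e-10) in the 3 genotypes. From day 2 to day 4 it fell by 1.62, 1.64, and 2.03 on the log2 scale. *Col23a1* started from 0.376, 0.177, and 0.183 FPKM in WT libraries, reached 1.92, 3.4, and 3.03 by day 2, and stood at 4.22, 4.48, and 7.21 on day 4. Its log2 fold changes by day 4 were 3.97 (SE 0.37, adjusted p = 1.04e-08), 3.76, and 3.08.

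*Col26a1*, a small chain with EMI domains, and *Col28a1*, a relative of collagen VI known from peripheral nerve, rose in every genotype by day 4. *Col26a1* was 0.0386, 0.0118, and 0.0122 FPKM in WT libraries of day 0, then 0.501, 0.913, and 0.397 on day 2 and later 2.49, 2.97, and 1.46 on day 4, with a log2 fold change of 4.27 (SE 0.54, adjusted p = 7.93e-07). It passed the filter only through day 4, so this rise was fixed in advance and its p-value is no support. *Col28a1* was 1.29, 1.05, and 0.712 and 3.03, 2.46, and 2.92 FPKM on days 0 and 4, and its log2 fold change was 1.41 (SE 0.48, adjusted p = 0.0147) in WT, 1.45 in *Per1*-/-, and 2.44 (SE 0.48, adjusted p = 0.000178) in labelled *Per2*-/- libraries. The call was lost without WT day 0 replicate 3 (1.19, adjusted p = 0.0633), and in *Per1*-/- without day 0 replicate 2 (1.05, adjusted p = 0.0865) or day 4 replicate 1 (1.07, adjusted p = 0.0828). The change labelled *Per2*-/- was 1.85, adjusted p = 0.00206 without day 0 replicate 3. The highest values of both on day 4 were in libraries labelled *Per2*-/- (6.59 and 7.81 FPKM), but the change in that group was not called against that in WT.

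The other 9 chains had a mean under 0.5 FPKM and were not tested: the fibril-associated *Col19a1*, *Col20a1*, and *Col22a1*, the transmembrane *Col13a1* and *Col17a1*, *Col4a3*, *Col4a4*, *Col6a4*, and *Col6a5*. The most abundant, *Col20a1*, ranged from 0.131 to 0.315 (median 0.184) FPKM on day 0 and 0.305 to 0.785 (median 0.53) on day 4. *Col13a1* was listed at 0 in 6 of the 9 libraries of day 0 and ranged up to 0.133 FPKM on day 4. *Col17a1*, a chain of the hemidesmosomes of epithelium, ranged from 0.0346 to 0.212 (median 0.118) FPKM on day 0 and 0.116 to 0.422 (median 0.249) on day 4. *Col19a1* reached at most 0.444 and *Col22a1* at most 0.403 FPKM on day 4, with medians of 0.156 and 0.155.

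Between days 2 and 4 fewer chains were called than from day 0, and the count depended on whether replicate numbers entered the fit. Without them, in WT cells *Col5a3* and *Col6a6* rose and *Col7a1* and *Col25a1* fell, 2 of 35 in each direction, where 1.62% of all genes rose and 1.59% fell. In *Per1*-/- cells *Col6a6* rose and *Col25a1* fell (backgrounds 1.38% and 1.06%). In the libraries labelled *Per2*-/-, *Col5a3*, *Col26a1*, and *Col6a6* rose and *Col7a1* and *Col25a1* fell (backgrounds 2.32% and 1.74%). *Col6a6* rose and *Col25a1* fell in every genotype. Because *Col6a6* and *Col26a1* passed the filter only through day 4, their rises were fixed in advance. The log2 fold change of *Col6a6* was 2.72 (SE 0.47, adjusted p = 0.0025), 2.59 (SE 0.47, adjusted p = 0.00392), and 1.80 (SE 0.47, adjusted p = 0.0276), and that of *Col7a1* -1.55 (SE 0.35, adjusted p = 0.0156), -1.12 (SE 0.35, adjusted p = 0.0787), and -1.25 (SE 0.35, adjusted p = 0.0375), so that of *Col7a1* in *Per1*-/- cells was of the same sign and missed the threshold. Leaving out 1 library ended the call of *Col5a3* in 5 of 6 WT and 6 of 6 labelled *Per2*-/- fits, that of *Col7a1* in 4 of 6 and 6 of 6, that of *Col6a6* in 4 of 6 labelled *Per2*-/- fits, and that of *Col26a1* in 2 of 6. Those of *Col25a1* in each genotype and of *Col6a6* in WT and *Per1*-/- cells were called in all 6 fits. *Col3a1* was 0.62, 0.63, and 0.52 higher on the log2 scale on day 4 than on day 2, which was not called. With a block for replicate numbers, which paired the libraries of days 2 and 4 in WT and *Per1*-/- cells, 4 chains rose (*Col5a3*, *Col6a2*, *Col6a6*, and *Col26a1*) and 2 fell (*Col7a1* and *Col25a1*) in each of these genotypes. The backgrounds were then 3.08% rising and 2.47% falling in WT cells, and 2.75% and 2.14% in *Per1*-/- cells. The block gave 7 up and 2 down in the libraries labelled *Per2*-/- (backgrounds 4.18% and 2.86%), where *Col6a1*, *Col27a1*, and *Col23a1* were called besides the same 6. All calls made without the block were kept with it. Over the alternatives run, the *Per1*-/- count was 1 to 6 and the labelled *Per2*-/- count 1 to 9.

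No collagen chain was called between genotypes on any day. The limma fit on FPKM called few genes of any kind between genotypes, so this is not a property of collagens. The study tested with another method, DESeq2, at the same thresholds. It reported many more genes that differed between *Per1*-/- cells and both other genotypes on days 2 and 4. Between *Per1*-/- and WT cells limma called 0 of 35 chains on each day, where 0.0134%, 0.0067%, and 0.0268% of all genes were called on days 0, 2, and 4. On day 0, 1 of 35 chains had an unadjusted p under 0.05, where 4.82% of all genes did, and the same figures were 0 chains and 2.75% on day 2 and 0 chains and 6.19% on day 4. Between the libraries labelled *Per2*-/- and WT it called 0 chains on each day (0.0067%, 0.0268%, and 0.0067% of all genes). Those with an unadjusted p under 0.05 were 0 chains and 3.94% of all genes on day 0, 1 chain and 2.87% on day 2, and 2 chains and 3.42% on day 4. Between *Per1*-/- cells and those labelled *Per2*-/- it also called 0 chains on each day (0.0201%, 0.0737%, and 0.556% of all genes), with 2 chains and 5.97% of all genes under an unadjusted 0.05 on day 0, 4 chains and 8.22% on day 2, and 3 chains and 13.2% on day 4. The fit with voom weights on the recovered fragments also called 0 in each of these 9 comparisons. The 4 interactions, which set the change from day 0 in *Per1*-/- or labelled *Per2*-/- libraries against that in WT, called 0 chains and 0% of all genes with limma and 0 chains with voom weights. Of the 35 chains, 0 and 0 had an unadjusted p under 0.05 for *Per1*-/- libraries (days 2 and 4), and 1 and 1 for labelled *Per2*-/- (*Col11a2* on day 2 and *Col25a1* on day 4), where at most 3.35% of all genes did. How alike the genotypes are depends on the chain. The 95% confidence interval of the difference was ±0.31 at its narrowest, ±0.66 at the median chain, and ±2.85 at its widest on the log2 scale. For *Per1*-/- against WT, it lay within 1.5-fold in either direction for 10, 10, and 11 of 35 chains on days 0, 2, and 4, and on day 4 these included *Col1a1*, *Col1a2*, *Col5a1*, *Col5a2*, *Col4a1*, *Col4a2*, and *Col6a1*. For the libraries labelled *Per2*-/- against WT it did so for 9, 7, and 7 chains. For *Col3a1* on day 4 the difference was 0.01 (95% confidence interval -0.71 to 0.73, unadjusted p = 0.972, adjusted p = 0.999) between *Per1*-/- and WT cells. For *Col5a3* it was -0.07 (95% confidence interval -0.81 to 0.68, unadjusted p = 0.852, adjusted p = 0.998). Both intervals run past 1.5-fold, so a difference of that size lies within them. The chains under an unadjusted p of 0.05 were *Col10a1* and *Col18a1* (day 0), *Col5a1*, *Col14a1*, *Col23a1*, and *Col2a1* (day 2), and *Col5a1*, *Col10a1*, *Col25a1*, and *Col4a6* (day 4), named after their values were seen. *Col5a1* had the lowest adjusted p on day 4: it was 314, 388, and 358 FPKM in *Per1*-/- libraries and 222, 285, and 257 in those labelled *Per2*-/-, without overlap, with a difference of 0.47 (95% confidence interval 0.16 to 0.79, unadjusted p = 0.00496, adjusted p = 0.156). The summed macrophage markers of these groups on that day were given above, and their part in this difference was not tested.

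Genes that fold, trim, and crosslink collagen are given from hand-written lists, for the change from day 0 to day 4. They are read against all genes tested, of which 22.9% rose and 20.9% fell in WT cells. The same shares were 22.6% and 20.4% in *Per1*-/- cells, and 21.6% and 18.8% in labelled *Per2*-/- libraries. The medians of all genes were given above. Of 21 tested genes for folding and modification in the endoplasmic reticulum, 4 rose and 3 fell in WT cells (median log2 fold change 0.11), 3 rose and 4 fell in *Per1*-/- (-0.04), and 1 rose and 3 fell in labelled *Per2*-/- libraries (0.10). None of these counts was above the share of all genes in its direction, so they are no result about the list. The split turned with the scaling: with FPKM rescaled to a common sum, 9 rose and 0 fell in WT cells (median 0.51), 6 rose and 2 fell in *Per1*-/-, and 5 rose and 0 fell in labelled *Per2*-/- libraries. That scaling also moved the median of all genes up, by 0.39, 0.26, and 0.24 in the 3 genotypes. The backgrounds and medians given above therefore do not apply to these counts, and the share of all genes called under it is not given. *P3h3* and *P4ha3* (prolyl hydroxylases) and *Fkbp14* (a prolyl isomerase) had the largest rises, 0.97 (SE 0.18, adjusted p = 0.000119), 0.66, and 0.66 on the log2 scale. The prolyl 4-hydroxylase subunits *P4ha1* and *P4ha2* and the lysyl hydroxylase *Plod3* fell in every genotype. The level went from 62.2 ± 3.08 to 35.7 ± 1.2 FPKM for *P4ha1* in WT cells (-0.80, SE 0.12, adjusted p = 9.75e-06), and the log2 fold changes of *P4ha2* and *Plod3* were -0.81 and -0.77. Under the common-sum scaling none of these 3 falls was called in WT and labelled *Per2*-/- libraries, and in *Per1*-/- cells those of *P4ha1* and *P4ha2* were called and that of *Plod3* was not. *Serpinh1*, the chaperone HSP47 that binds the triple helix, was 763 ± 33.6 FPKM on day 0 and 776 ± 147 on day 4 (0.01, SE 0.16, adjusted p = 0.966). It falls outside the naming rule and was chosen after its values were seen.

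Of 12 tested genes for trimming and crosslinking outside the cell, 2 rose and 6 fell in WT cells (median -0.64), 1 rose and 7 fell in *Per1*-/- (-1.0), and 2 rose and 5 fell in labelled *Per2*-/- libraries (-0.37). Of all genes, 21.6 to 22.9% rose and 18.8 to 20.9% fell, depending on the genotype. *Adamts2* and *Adamts3*, proteases that remove the amino-terminal propeptide of fibrillar procollagens, rose in WT cells, by 2.26 (SE 0.41, adjusted p = 5.85e-05) and 2.56 (SE 0.69, adjusted p = 0.00284). The lysyl oxidases *Loxl2*, *Loxl3*, and *Loxl4*, which start the crosslinks, fell in every genotype. *Loxl4* went from 26.7 ± 9.83 to 2.58 ± 0.566 FPKM in WT cells (-3.28, SE 0.42, adjusted p = 1.04e-06), *Loxl3* from 66.2 ± 9.78 to 14.2 ± 1.38 (-2.21, SE 0.16, adjusted p = 2.74e-10), and *Loxl2* from 83.8 ± 17.6 to 23.5 ± 3.15 (-1.82, SE 0.25, adjusted p = 2.22e-06). So the transcripts of 3 crosslinking enzymes fell in the libraries in which most fibrillar chains rose.

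Of 13 tested proteins that bind fibrils, 7 rose and 3 fell in each genotype (median 1.84 in WT cells, 1.58 in *Per1*-/-, and 1.69 in labelled *Per2*-/- libraries). For this list and the next ones, the shares of all genes were again 21.6 to 22.9% rising and 18.8 to 20.9% falling. The small leucine-rich proteoglycans, which coat fibrils, had the largest rises in WT cells: *Lum* from 4.77 ± 1.61 to 281 ± 135 FPKM (5.79, SE 0.79, adjusted p = 2.08e-06), *Dcn* from 10.1 ± 6.26 to 128 ± 12.3 (3.93, SE 0.57, adjusted p = 5.24e-06), and *Fmod* from 2.8 ± 1.2 to 23.2 ± 7.61 (3.03, SE 0.51, adjusted p = 2.75e-05). The 3 that fell were *Tnc*, *Thbs1*, and *Fn1*, matrix proteins known from wounds and cultured fibroblasts, with -3.68 (SE 0.45, adjusted p = 4.46e-07), -2.68 (SE 0.19, adjusted p = 3.73e-10), and -1.40 (SE 0.15, adjusted p = 1.16e-07). Of 9 tested partners of collagen IV in basement membranes, 4 rose and 3 fell in WT cells (median 0.25), and 4 rose and 2 fell in each of the other genotypes (medians 0.25 and 0.32). The laminin chains *Lama4* and *Lama2* and nidogen 2 (*Nid2*) rose, by 2.77, 1.43, and 1.95 on the log2 scale in WT cells. *Lama5* (-2.34, SE 0.35, adjusted p = 7.25e-06), nidogen 1 (*Nid1*, -1.14, SE 0.13, adjusted p = 1.7e-07), and perlecan (*Hspg2*, -0.64, SE 0.13, adjusted p = 0.000251) fell there, the last of them not under the common-sum scaling. Within this list, then, members of one family (nidogens, laminin α chains) went opposite ways. Of 8 tested receptors, 2 rose and 1 fell in WT and *Per1*-/- cells (medians 0.27 and 0.26) and 1 rose and 1 fell in labelled *Per2*-/- libraries (0.08). These receptor counts were near or under the shares of all genes. *Itgb1*, the β1 integrin chain that collagen-binding integrins share, fell from 889.9 ± 154 to 321 ± 6.85 FPKM in WT cells (-1.46, SE 0.13, adjusted p = 9.55e-09). The discoidin receptor *Ddr1* and the leukocyte receptor *Lair1* rose, by 0.91 (SE 0.15, adjusted p = 2.93e-05) and 1.40 (SE 0.45, adjusted p = 0.0106).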

How the data were processed

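Polyadenylated RNA of the 27 libraries was sequenced in pairs after a library kit that does not mark the strand. Per the submitters' processing notes, the authors mapped reads with HISAT2 2.0.5 to mm10 (GRCm38) and counted them per gene with featureCounts 1.5.0-p3. The deposited FPKM also carry a size factor per library. Solving for it gave whole fragments for 100% of values (tolerance 0.01), with 15815013 to 24264097 fragments per library.

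FPKM were tested as log2(FPKM + 0.1), which understates changes of low genes, for 14932 genes with a mean of at least 0.5, in 1 limma 3.58.1 fit (R 4.3.3) over all 9 groups with 22 comparisons. Deviations of same-numbered libraries of 1 genotype correlated over 0.1 in all 3 pairs between days 2 and 4 in WT (0.127 to 0.196) and *Per1*-/- (0.14 to 0.284) and between days 0 and 2 in *Per1*-/- cells (0.15 to 0.294). This was taken as pairing. Other comparisons between days did not reach it in all 3 pairs. Weaker pairing there remains possible, since a library correlated best with its own number in 48 of 54 cases. Counts from day 0 to day 2 in *Per1*-/- cells come from the fit without the replicate block. With the block none of these calls was lost, but its count and background for that comparison are not given. Benjamini-Hochberg adjustment ran over all genes tested. A call needed an adjusted p no higher than 0.05 together with a change of 0.58 or more on the log2 scale. The script was tested on simulated data. Alternatives were pseudocounts, filters, rescaled FPKM, voom weights on fragments, a replicate block, fits of only the groups compared, no minimum fold, and leaving out libraries.

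Named chains were the 6 most abundant, partner chains, and in each class up to 4 per direction called by day 4, and named partner genes up to 3 per list and direction. Members and lists were chosen with earlier results of these data known. Of the members, 28 overlap another annotated gene. Gene models came from GENCODE mouse release M21 and upstream windows from RefSeq (GRCm38.p6), which held 35 of the 44 members.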

Additional observations from a re-analysis of the deposited data

How the results depend on the processing

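The 9 comparisons between genotypes and the 4 interactions gave 0 called chains under every alternative run. Counts for changes from day 0 stayed within 1.5 times the reported ones, with 14 to 22 chains on day 2 and 22 to 26 on day 4 when 1 library was left out. Counts from day 2 to day 4 moved more. In WT cells 4 chains became 7 with only the groups compared, and 2 to 4 without 1 library. In *Per1*-/- cells 2 became 5 with a pseudocount of 1, 1 with a pseudocount of 0.01 or a mean of at least 1 FPKM, 4 with rescaled FPKM or voom weights, and 2 to 4 without 1 library. In the libraries labelled *Per2*-/- 5 became 2 with a pseudocount of 0.01, 3 with no filter, and 1 to 4 without 1 library. *Col11a2* turned from -0.10 to 1.22 from day 0 to day 2 in the libraries labelled *Per2*-/- without the 2 libraries of day 0 with the most *Col2a1*, which took away its highest day 0 value in that group. Of 144 called changes of single chains, rescaled FPKM lost 8, voom weights 7, only the groups compared 15, a pseudocount of 0.01 lost 4, a pseudocount of 1 lost 5, and none turned. Over 864 fits without 1 library, 80 lost a call, touching 34 of the 144. The cause of these losses was not tested. With the replicate block, the day 2 to day 4 counts were 6 in WT, 6 in *Per1*-/-, and 9 in labelled *Per2*-/- libraries, and none of the 144 calls was lost. In 48 of 54 cases a library correlated best with its own replicate number on another day. The 9 untested chains had a mean under 0.5 FPKM, and differences between genotypes smaller than the intervals given in the report could not be resolved.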
